A study of Mus musculus with 15 samples.

Results

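The comparison concerned the lowest of 3 doses of an antibody against VEGF-A in a mouse glioma, set against untreated tumors. Of 15 libraries in all, 6 belonged to it by their sample titles, 3 at 50 µg per dose and 3 without treatment. The 50 µg tumors came from mice that received B20.4.1.1, a monoclonal antibody that binds VEGF-A, at 50 µg every 3 days from day 10 after implantation to the endpoint. The untreated tumors came from mice with the same implant and no antibody (0 µg). Both groups were GL261 tumors, grown from a cultured mouse glioma line in C57BL/6 mice, and were taken after perfusion with saline. The sources used here did not give age or sex of the mice, or any control antibody.

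VEGF-A is the main growth factor for blood vessels and is released by hypoxic tumor cells. It binds VEGFR1 (Flt1) and VEGFR2 (Kdr) on endothelial cells, with the neuropilins as co-receptors. Signaling through VEGFR2 sends out tip cells, the endothelial cells that lead a sprout and lay down new basement membrane, while pericytes wrap and steady the vessel behind them. Because the antibody acts on the protein, the dose labels could not be checked against any transcript.

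A bulk RNA sequencing library was made from total RNA of each tumor, and expression is given in FPKM, that is fragments for each kilobase of a transcript and each M of mapped fragments. Depth, estimated from the error bounds in the deposited files, was 22.0 to 26.8 M fragments per library. The tumors carried the marks of their tissue. Summed FPKM of 24 dividing cell genes was 1003, 760.3 and 853 at 50 µg and 1136, 719 and 821 in untreated tumors, against 38.8 to 49.2 in the 3 healthy brain libraries of the series. Summed FPKM of 16 neuron genes was 19.7, 35.5 and 10.01 at 50 µg and 24.7, 16.3 and 13.3 in untreated tumors, against 2647 to 3798 in healthy brain. The agent field of the labels disagreed with the title for 2 of the 6 libraries. It gave replicate 3 of the untreated tumors as 50 µg, and replicate 3 of the 50 µg tumors as 100 µg.

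Replicate 3 at 50 µg stood apart from the other 5 libraries before any gene was compared. It listed 88071 assembled transcripts, of which 62.0% had a single exon, against 33.0 and 33.2% of 49000 and 49201 transcripts in the other 50 µg libraries and 28.0, 28.0 and 29.6% of 45477 to 46260 in untreated tumors. Of its 54507 single-exon transcripts of 200 bp or more, 50.8% lay within introns, against 31.8 and 32.6% in the other 50 µg libraries and 24.5, 26.1 and 28.5% in untreated tumors. Protein-coding genes listed in pieces, meaning at least 2 single-exon transcripts and no transcript over 50% of the gene's exonic length, made up 13.8% of its expressed genes, against 3.16 and 3.53% at the same dose and 3.37, 3.24 and 3.13% in untreated tumors. Its estimated depth was 24.6 M fragments, within the range of the others.

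The expression profile split the same way. The first principal component held 41.0% of the variance and placed replicate 3 at 50 µg at 91.8, with the other 5 libraries between -23.8 and -10.8. The correlation of log2 values across genes between this library and the other 5 was 0.828 to 0.846, and between any 2 of those 5 it was 0.908 to 0.930. It was the lowest of the 6 by more than 1 log2 unit in 771 genes and the highest by that margin in 284, against 72 to 95 and 45 to 70 genes for each of the others. The part that its assembly played in each value was not tested. The medians of lists named below that moved by over 0.1 without it, and the estimates that turned sign without it, are given both ways. Vegfa shows the split in a gene of the pathway, since in replicate 3 at 50 µg it was listed as 4 single-exon pieces, of which the widest covered 53.6% of the gene. In the other 5 libraries a spliced transcript covered at least 97.5% of it.

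**Figure D1:**
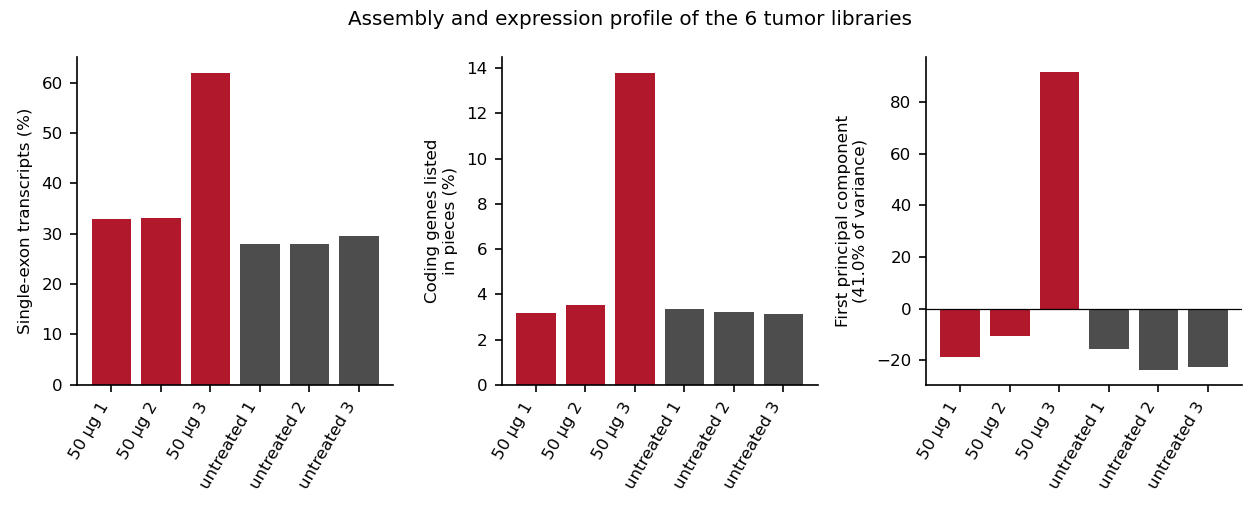
Share of single-exon transcripts (left, %), share of expressed protein-coding genes listed in pieces (middle, %) and position on the first principal component of log2(FPKM + 1) (right, in component units) for the 3 libraries at 50 µg and the 3 untreated libraries, 1 bar each. Replicate 3 at 50 µg is at 62.0%, 13.8% and 91.8, and the other 5 libraries lie close together.

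No gene passed the test between 50 µg and untreated tumors. Of 14653 genes tested, 0% had an adjusted p under 0.05 by limma, and the smallest adjusted p was 0.533. At an unadjusted p under 0.05, 225 genes were higher (1.54%) and 363 were lower (2.48%) at 50 µg, 588 in all. All 3 libraries at 50 µg lay above all 3 untreated libraries in 486 genes (3.32%), and below them in 893 (6.09%). Differences are of log2(FPKM + 1), 50 µg minus untreated. Their median over all genes was -0.07 and 59.3% were below 0, while scaling by median of ratios brought the median to -0.0040 and turned the split to 350 higher and 253 lower. Without replicate 3 at 50 µg the median was -0.03, and 163 genes were higher and 212 lower at an unadjusted p under 0.05. Of the 588 genes under that threshold with all 6 libraries, 191 remained under it without this library. The genes below are described by their values, and none of them is a call. A gene's value takes in every assembled transcript on its exons. A plain sum, over spliced transcripts that share an intron with the gene, leaves out single-exon pieces. For genes without introns it instead adds up all transcripts on their exons, single-exon ones included. The plain sum is given where it turned the sign or took away most of an estimate.

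The ligands of the VEGF family did not separate the groups. Vegfa, the target of the antibody (chromosome 17, 46016993 to 46032369 in mm10), had 68.5, 81.0 and 30.3 FPKM at 50 µg, against 68.6, 55.6 and 37.7 FPKM in untreated tumors. The lowest value at 50 µg, in replicate 3, is from the library that listed it as single-exon transcripts only, and the groups overlapped. The difference was 0.07 (SE 0.37, unadjusted p = 0.843 by limma), and 0.50 without that library. The plain sum leaves out such transcripts, so it held nothing of Vegfa from that library, and its difference was -1.59. It is thus not a second measure of Vegfa in replicate 3 at 50 µg. The sign of the estimate depended on how the transcripts of that library were summed. Vegfb, a relative that binds Flt1, had 17.9, 28.8 and 12.8 FPKM at 50 µg, against 22.1, 23.5 and 21.7 FPKM in untreated tumors, a difference of -0.24 (0.02 without replicate 3 at 50 µg), and its transcripts at times also covered a neighboring gene. Pgf, placental growth factor, had 9.75, 4.89 and 5.13 FPKM at 50 µg, against 8.24, 7.84 and 4.02 FPKM in untreated tumors, a difference of -0.03 (0.10 without replicate 3 at 50 µg). Vegfc, a ligand of the lymphatic receptor, was listed at 0 in all 6 libraries, and Vegfd was too low to test.

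The receptors also overlapped between groups. Kdr, the main signaling receptor, had 2.10, 2.30 and 2.68 FPKM at 50 µg, against 5.12, 1.76 and 2.59 FPKM in untreated tumors, with untreated replicate 1 above the other 5 libraries (difference -0.23 (SE 0.39, unadjusted p = 0.572 by limma)). Flt1, a high-affinity receptor that also acts as a decoy, had 5.89, 4.85 and 6.23 FPKM at 50 µg, against 6.37, 6.29 and 5.14 FPKM in untreated tumors, a difference of -0.06 that median-of-ratios scaling turned to 0.01. Flt4, the receptor of lymphatic and some tumor endothelium, had 1.34, 0.670 and 0.993 FPKM at 50 µg, against 1.90, 1.32 and 1.57 FPKM in untreated tumors, a difference of -0.38 (SE 0.22, unadjusted p = 0.105 by limma). The co-receptor Nrp1 had 2.87, 2.69 and 5.24 FPKM at 50 µg, against 6.09, 3.33 and 4.90 FPKM in untreated tumors (-0.34), and its relative Nrp2 had 5.33, 6.85 and 5.57 FPKM at 50 µg, against 5.86, 4.32 and 5.87 FPKM in untreated tumors (0.13). For Flt1 and Kdr the spread within groups was as large as any difference between them. Overlap of 3 libraries a group does not show that the receptors were alike.

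All 13 tip cell genes tested, of 15 on the list, had an estimate below 0, against 59.3% of all genes. Of the 13, 2 had an unadjusted p under 0.05, both lower (2.48% of all genes), and 2 did not overlap, both lower (6.09% of all genes). The median was -0.31, against -0.07 over all genes, and -0.43 without replicate 3 at 50 µg, where 12 of the 13 were below 0. Without untreated replicate 3, a library whose agent field disagrees with its title, it was -0.56, and with groups taken from that field -0.50. Under the plain sum 4 of the 13 were above 0, namely Nid2 (0.62), Hspg2 (0.15), Lamb1 (0.08) and Dll4 (0.07). Fewer cells of a type, less RNA per cell and a change in other cells that express the same genes cannot be told apart in bulk tumor RNA. This holds here and in each list below.

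Col4a2, a chain of basement membrane collagen IV, had 14.3, 11.9 and 7.30 FPKM at 50 µg, against 31.1, 20.7 and 17.1 FPKM in untreated tumors. Every 50 µg library lay below every untreated library, and the difference was -0.98 (SE 0.30, unadjusted p = 0.00840 by limma), with -0.72 without replicate 3 at 50 µg. Its partner chain Col4a1 had 13.8, 14.2 and 13.02 FPKM at 50 µg, against 28.5, 19.5 and 17.03 FPKM in untreated tumors, again with no overlap (difference -0.60 (SE 0.29, unadjusted p = 0.0676 by limma)), and was at -0.15 under the plain sum. The pair start head to head on chromosome 8, their annotated first exons overlap (Col4a1 at 11198423 to 11312826, Col4a2 at 11312805 to 11449287 in mm10), and the counting ignored strand, so the 2 values are not fully separate. Plvap, a protein of the diaphragms of fenestrated endothelium that marks leaky tumor vessels, had 2.22, 0 and 0.878 FPKM at 50 µg, against 3.98, 2.18 and 2.66 FPKM in untreated tumors. It was listed at 0 in 50 µg replicate 2, a value that can be a failed assembly, and the groups overlapped. The difference was -1.09 (SE 0.44, unadjusted p = 0.0326 by limma).

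None of the other 10 tip cell genes had an unadjusted p under 0.05. Esm1, a proteoglycan induced by VEGF-A, had 5.69, 2.69 and 16.6 FPKM at 50 µg, against 13.1, 6.12 and 5.69 FPKM in untreated tumors, and was highest in replicate 3 at 50 µg (difference -0.21, or -0.82 without that library). Apln, the ligand apelin, had 9.76, 9.60 and 19.2 FPKM at 50 µg, against 28.5, 13.2 and 9.13 FPKM in untreated tumors (-0.29), and Angpt2, which destabilizes vessels by blocking the receptor Tie2, had 4.60, 4.10 and 10.8 FPKM at 50 µg, against 11.0, 7.44 and 4.63 FPKM in untreated tumors (-0.25). In all 3, replicates 1 and 2 at 50 µg were below the untreated mean and replicate 3 was not. The remaining 7 were Hspg2 (-0.84), Mcam (-0.49), Nid2 (-0.43, or 0.07 without replicate 3 at 50 µg), Lamb1 (-0.31), the Notch ligand Dll4 (-0.27), Pdgfb (-0.25), which recruits pericytes, and the chemokine receptor Cxcr4 (-0.20). Hspg2, the heparan sulfate proteoglycan perlecan, rested on a single library, with 45.2, 36.9 and 7.79 FPKM at 50 µg, against 26.6, 47.9 and 65.0 FPKM in untreated tumors, and was at -0.09 without replicate 3 at 50 µg.

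Of 22 general endothelial genes 19 were tested, 14 with an estimate below 0 and 5 above. None had an unadjusted p under 0.05, and 4 did not overlap, all lower at 50 µg (6.09% of all genes). Their median was -0.12, or -0.31 without replicate 3 at 50 µg. Vwf, the clotting factor stored in endothelial granules, had 4.01, 3.86 and 3.16 FPKM at 50 µg, against 6.496, 6.05 and 4.49 FPKM in untreated tumors (difference -0.51 (SE 0.24, unadjusted p = 0.0555 by limma)). Tie1, an orphan receptor of the angiopoietin system, had 3.03, 2.79 and 3.02 FPKM at 50 µg, against 5.12, 4.15 and 3.49 FPKM in untreated tumors (-0.40 (SE 0.24, unadjusted p = 0.122 by limma), and -0.04 under the plain sum), and Ecscr, an endothelial membrane protein, had 6.84, 5.28 and 5.62 FPKM at 50 µg, against 9.91, 7.07 and 7.01 FPKM in untreated tumors (-0.37 (SE 0.21, unadjusted p = 0.101 by limma)). These 3 separated the groups by narrow gaps. Eng, a TGF-beta co-receptor, was the other that did not overlap (-0.35). The junction genes Cdh5 (-0.29), Pecam1 (-0.12, or 0.25 under the plain sum) and Cldn5 (-0.06, or 0.02 after median-of-ratios scaling) overlapped. Of the 12 blood-brain barrier genes tested, 6 were above and 6 below 0, with a median of 0.02 (-0.04 under the plain sum).

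Estimates for genes of the vessel wall were mostly below 0, and moved toward 0 without replicate 3 at 50 µg. These lists share members with the tip cell list, so their counts are not separate from it. Col4a1, Col4a2, Hspg2, Lamb1 and Nid2 are also basement membrane genes, and Mcam is also a pericyte gene. All 12 basement membrane genes had an estimate below 0, with 1 lower at an unadjusted p under 0.05 (Col4a2, against 2.48% of all genes), 3 lower without overlap (against 6.09%) and a median of -0.44, which moved to -0.18 without replicate 3 at 50 µg. Lama4, a laminin chain of vessel basement membranes, was the third that did not overlap, with 11.5, 12.9 and 6.46 FPKM at 50 µg, against 13.3, 13.9 and 14.5 FPKM in untreated tumors (difference -0.45 (SE 0.30, unadjusted p = 0.167 by limma), -0.18 without that library). Of 13 pericyte genes 12 were below 0, none with an unadjusted p under 0.05, with a median of -0.49 that moved to -0.19. Acta2, smooth muscle actin, had 6.82, 7.10 and 3.17 FPKM at 50 µg, against 17.6, 8.79 and 7.33 FPKM in untreated tumors (difference -0.84 (SE 0.42, unadjusted p = 0.0698 by limma), -0.53 without replicate 3 at 50 µg), and its groups did not overlap. Pdgfrb, the receptor by which pericytes are recruited, had 1.37, 2.05 and 0.705 FPKM at 50 µg, against 3.46, 1.49 and 2.21 FPKM in untreated tumors (-0.51 (SE 0.30, unadjusted p = 0.114 by limma), -0.29 without that library). Kcnj8, Abcc9 and Notch3 were listed at 0 in replicate 3 at 50 µg and in no other of the 6 libraries.

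**Figure D2:**
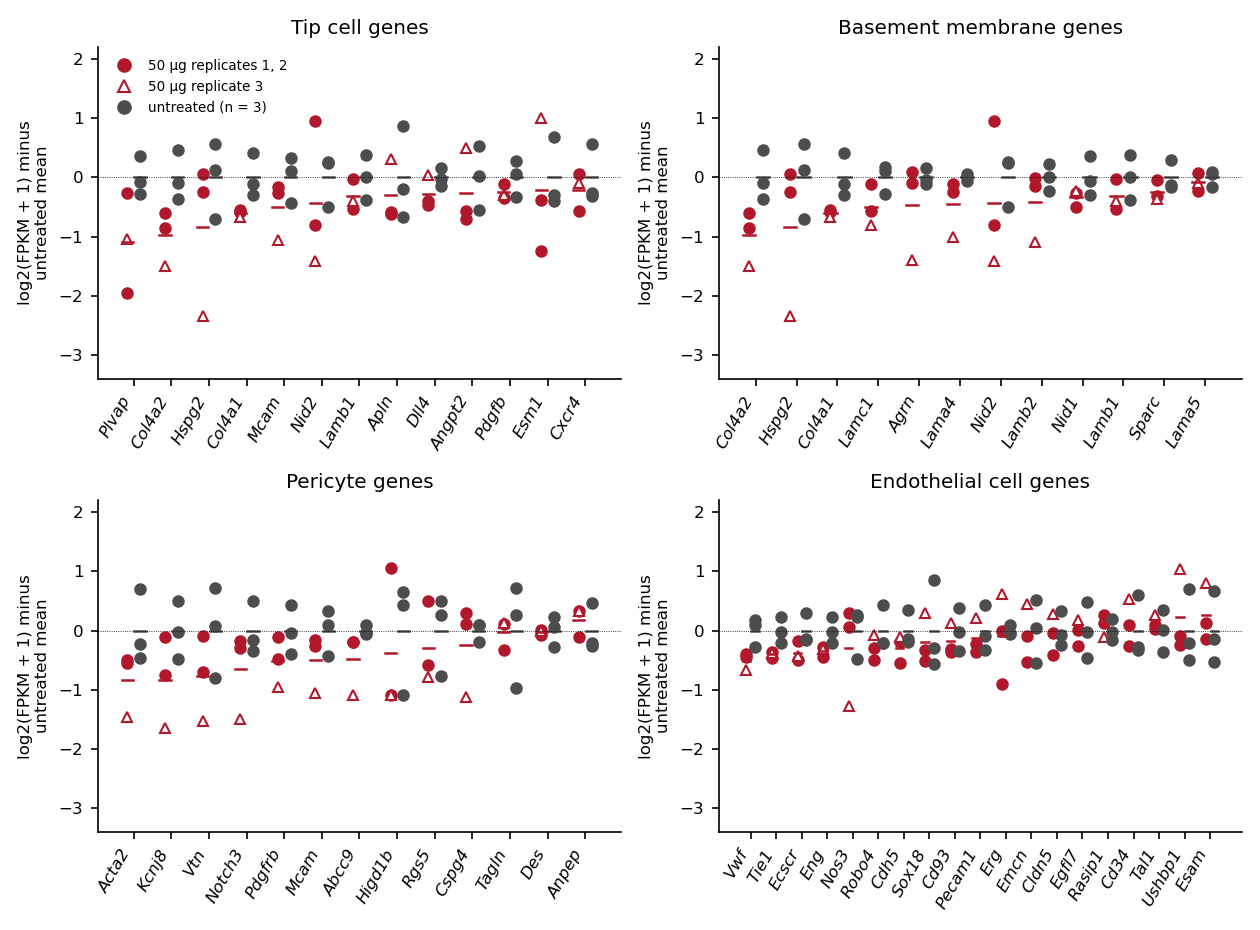
Values of the tested tip cell, basement membrane, pericyte and endothelial genes in each library, as log2(FPKM + 1) minus the untreated mean of that gene. Points are libraries (red, 50 µg; open triangle, 50 µg replicate 3; grey, untreated) and short lines are group means, n = 3 each. All 13 tip cell means at 50 µg lie below the untreated means, and the open triangles lie far below the other points in Hspg2, Agrn, Notch3 and Cspg4.

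Of 17 matrix genes tested, 15 had an estimate below 0. An unadjusted p under 0.05 was found in 2 of the 17 (2.48% of all genes), and 4 did not overlap (6.09% of all genes), all lower at 50 µg. The median was -0.48, and -0.19 without replicate 3 at 50 µg. Under the plain sum it was -0.13. Col1a1, the main chain of fibrillar collagen I, had 8.25, 3.52 and 1.32 FPKM at 50 µg, against 13.8, 7.70 and 7.35 FPKM in untreated tumors (difference -1.16 (SE 0.45, unadjusted p = 0.0269 by limma), -0.66 without replicate 3 at 50 µg), with overlap between the groups. Col6a3, a chain of the beaded-filament collagen VI, had 1.45, 1.05 and 0.489 FPKM at 50 µg, against 2.50, 1.98 and 1.80 FPKM in untreated tumors, with none (-0.66 (SE 0.25, unadjusted p = 0.0239 by limma)), but a plain sum of spliced transcripts put it at -0.02. Bgn, biglycan, had 6.65, 6.70 and 5.65 FPKM at 50 µg, against 20.1, 8.82 and 8.34 FPKM in untreated tumors (-0.77 (SE 0.37, unadjusted p = 0.0648 by limma)), also without overlap. Igfbp2, an IGF-binding protein on the meningeal fibroblast list, had 1.75, 1.47 and 1.48 FPKM at 50 µg, against 21.01, 3.32 and 1.87 FPKM in untreated tumors (-1.34 (SE 0.65, unadjusted p = 0.0632 by limma)), where untreated replicate 1 was far above the others. Of 12 metalloprotease and inhibitor genes tested 9 were below 0, with a median of -0.18 (-0.02 without replicate 3 at 50 µg). None had an unadjusted p under 0.05. Of the 12, 3 were lower without overlap (6.09% of all genes) and 1 was higher (3.32% of all genes). The higher one, collagenase Mmp13, had 4.86, 4.59 and 9.07 FPKM at 50 µg, against 3.37, 3.07 and 2.84 FPKM in untreated tumors (0.76 (SE 0.37, unadjusted p = 0.0631 by limma)), though under the plain sum it was at -0.36.

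Among the lists with at least 5 tested genes, the highest median was that of the response to amino acid shortage. In this response, uncharged tRNA activates a kinase that slows protein synthesis but raises translation of the transcription factor ATF4. ATF4 binds CEBP-ATF response elements and switches on genes that import, make and recycle amino acids. All 16 genes of the list were tested. Of them 13 had an estimate above 0, 4 had an unadjusted p under 0.05 and 6 did not overlap, each of these higher at 50 µg. The background for those 2 counts was 1.54 and 3.32% of genes. The median of the list was 0.24, and 0.36 without replicate 3 at 50 µg. Under the plain sum it was 0.21, below the 0.26 of the T and NK cell list. The sum of the 16 was 909, 1250.2 and 1209 FPKM at 50 µg and 822, 806 and 885 FPKM in untreated tumors, so the groups did not overlap, with replicate 1 at 50 µg nearest to them. This pattern was known when the list was chosen and is not independent support.

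The response element is a feature of the sequence of these genes and not of their values. Because the list was drawn from a response that acts through this element, matches among its members can follow from how it was chosen. The share of matches would be the same whatever the libraries held, so it cannot bear on treated against untreated tumors. It is given as a description of the list. RefSeq promoters (GRCm38.p6) were found for 13 of the 16 members, and the 250 bases before the start site were searched for the core TGATGNAA on both strands. At least 1 match lay in 4 of those 13 members (14 promoters), namely Slc7a11, Asns, Chac1 and Atf3. Over all tested genes with a promoter it was 239 of 9944 (2.40%), and 3.45% of all 32851 RefSeq promoters held it. These 4 are shown because they carry the match, in capitals (TTNCATCA where it lies on the other strand), 5′ to 3′ along the gene.
Slc7a11 (chr3:50443614-50443863, minus strand): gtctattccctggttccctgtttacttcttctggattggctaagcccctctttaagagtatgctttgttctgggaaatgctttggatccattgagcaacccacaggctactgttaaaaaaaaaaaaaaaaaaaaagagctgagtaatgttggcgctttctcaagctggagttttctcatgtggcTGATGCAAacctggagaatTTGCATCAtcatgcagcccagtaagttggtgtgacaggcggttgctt
Asns (chr6:7693210-7693459, minus strand): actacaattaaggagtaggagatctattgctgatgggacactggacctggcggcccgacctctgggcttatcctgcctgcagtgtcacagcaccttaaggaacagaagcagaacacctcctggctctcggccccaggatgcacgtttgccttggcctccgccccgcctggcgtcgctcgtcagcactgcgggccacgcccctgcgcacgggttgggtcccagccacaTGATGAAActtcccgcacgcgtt
Chac1 (chr2:119350992-119351241, plus strand): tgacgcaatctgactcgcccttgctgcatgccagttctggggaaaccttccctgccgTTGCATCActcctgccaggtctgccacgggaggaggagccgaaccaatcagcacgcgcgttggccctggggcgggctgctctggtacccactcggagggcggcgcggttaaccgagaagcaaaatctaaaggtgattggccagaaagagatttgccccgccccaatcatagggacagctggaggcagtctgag
Atf3 (chr1:191183334-191183583, minus strand): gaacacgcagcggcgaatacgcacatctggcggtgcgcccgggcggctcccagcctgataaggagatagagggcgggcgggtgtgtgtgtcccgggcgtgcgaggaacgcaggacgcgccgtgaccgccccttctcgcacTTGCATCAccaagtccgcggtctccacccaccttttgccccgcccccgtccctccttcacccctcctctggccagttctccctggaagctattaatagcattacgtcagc
Slc7a11 held 2 matches, in opposite directions, which began 66 and 47 bases before the start. Asns held 1 at 23 bases, Atf3 1 at 110 and Chac1 1 at 193. A match is a run of letters and not a measured binding site, and of these 4 genes only Slc7a11 had an unadjusted p under 0.05.

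Cth, cystathionine gamma-lyase, which makes cysteine from cystathionine (chromosome 3, 157894248 to 157925077 in mm10), had the smallest p of the list. It had 9.17, 14.8 and 15.8 FPKM at 50 µg, against 4.68, 4.32 and 6.96 FPKM in untreated tumors, with a gap between the groups. The difference was 1.16 (SE 0.26, unadjusted p = 0.000976 by limma), the adjusted p was 0.889 by limma, and the difference without replicate 3 at 50 µg was 1.03 (unadjusted p = 0.00469 by limma). Slc7a11, the cystine importer xCT (chromosome 3, 49892526 to 50443614), whose promoter with 2 matches is shown above, had 2.11, 3.38 and 5.46 FPKM at 50 µg, against 1.19, 1.59 and 1.63 FPKM in untreated tumors. Its groups did not overlap, and the difference was 0.86 (SE 0.32, unadjusted p = 0.0222 by limma). Its widest transcript covered 42.7 to 92.9% of the exonic length, depending on the library, and a plain sum of spliced transcripts put the difference at 0.03. Without replicate 3 at 50 µg it was 0.59 (unadjusted p = 0.0943 by limma). Cystine import and transsulfuration are 2 of the sources of cysteine, the limiting part of the antioxidant glutathione.

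Atf4, the regulator itself (chromosome 15, 80255184 to 80257541), had 204, 366 and 533 FPKM at 50 µg, against 211, 192 and 232 FPKM in untreated tumors (difference 0.69 (SE 0.29, unadjusted p = 0.0390 by limma)). Replicate 1 at 50 µg lay among the untreated libraries, replicate 3 was highest, and the estimate without it was 0.37. Shmt2, the mitochondrial serine hydroxymethyltransferase that feeds carbon from serine to folate, had 70.6, 78.5 and 58.6 FPKM at 50 µg, against 41.1, 38.9 and 55.7 FPKM in untreated tumors (0.61 (SE 0.24, unadjusted p = 0.0270 by limma)), without overlap, but its exons overlap another gene and its transcripts at times covered that gene too. Trib3, a pseudokinase that dampens the response, had 110.0, 148 and 110.0 FPKM at 50 µg, against 72.0, 108 and 102 FPKM in untreated tumors (0.39 (SE 0.28, unadjusted p = 0.197 by limma)). Psat1, a serine synthesis enzyme, had 111, 108 and 134 FPKM at 50 µg, against 104, 83.5 and 99.0 FPKM in untreated tumors (0.30 (SE 0.17, unadjusted p = 0.111 by limma)), and Slc1a4, a carrier of alanine, serine and cysteine, had 13.2, 15.6 and 13.6 FPKM at 50 µg, against 12.1, 13.2 and 11.9 FPKM in untreated tumors (0.17 (SE 0.15, unadjusted p = 0.257 by limma)). In these 3 the gap between groups was narrow.

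Other members overlapped between groups. Asns, asparagine synthetase, had 63.0, 77.6 and 54.0 FPKM at 50 µg, against 55.1, 58.6 and 47.4 FPKM in untreated tumors (0.26). Chac1, which degrades glutathione, had 7.69, 22.1 and 12.1 FPKM at 50 µg, against 11.8, 9.47 and 13.5 FPKM in untreated tumors, and its replicate 1 at 50 µg was below every untreated library (0.14). Atf3 was at 0.18, Phgdh, the first enzyme of serine synthesis, at 0.21, the mitochondrial folate enzyme Aldh1l2 at 0.39 and Slc3a2, the heavy chain that partners Slc7a11, at 0.20. The 3 estimates below 0 were Ddit3, the death-linked factor CHOP (-0.10), Slc7a5, the large neutral amino acid carrier (-0.05, or 0.13 without replicate 3 at 50 µg), and Sesn2, a leucine sensor (-0.0075, or 0.36 without replicate 3 at 50 µg). Replicate 2 at 50 µg was the highest of the 6 libraries in Asns, Chac1, Trib3, Phgdh, Slc3a2, Slc7a5, Sesn2, Aldh1l2, Slc1a4 and Shmt2, and replicate 3 was the highest in Cth, Slc7a11, Atf4 and Psat1.

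**Figure D3:**
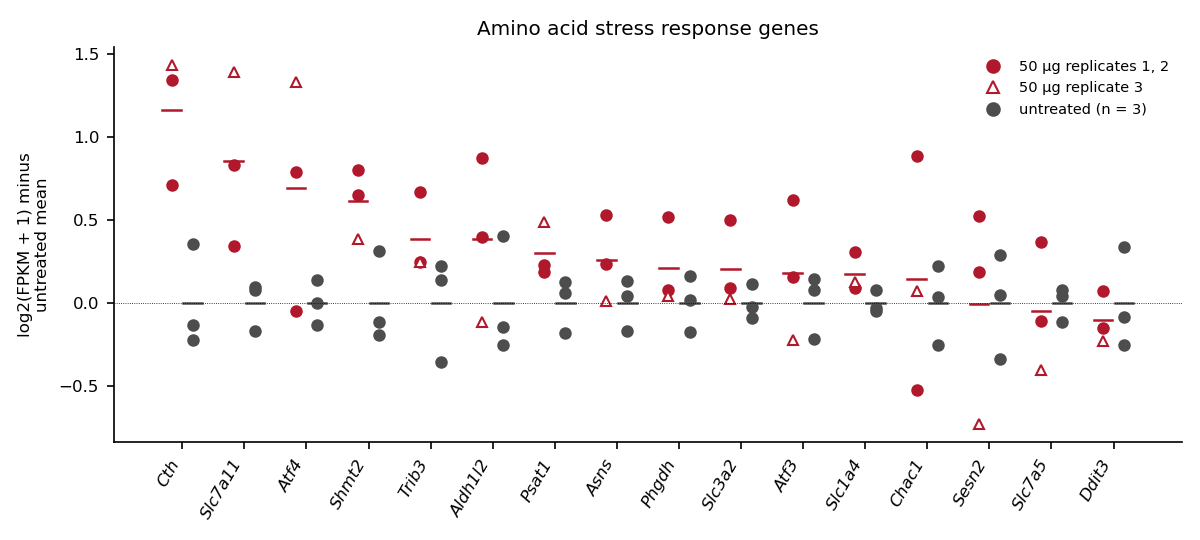
Values of the 16 amino acid stress response genes in each library, as log2(FPKM + 1) minus the untreated mean of that gene, ordered by difference. Points are libraries (red, 50 µg; open triangle, 50 µg replicate 3; grey, untreated) and short lines are group means, n = 3 each. Cth has the largest difference (1.16), and 13 of the 16 group means at 50 µg are above the untreated mean.

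The higher doses share the same untreated tumors, and the means of 6 list members are set side by side. Mean Cth was 5.32 ± 1.44 FPKM without antibody, 13.2 ± 3.57 FPKM at 50 µg, 20.9 ± 2.70 FPKM at 100 µg and 26.5 ± 6.60 FPKM at 200 µg (SD, n = 3 each). Slc7a11 was at 1.47 ± 0.246, 3.65 ± 1.69, 5.92 ± 2.27 and 7.78 ± 2.78 FPKM in the same order. Chac1 was at 11.6 ± 2.05, 14.0 ± 7.39, 30.4 ± 9.70 and 29.5 ± 6.49 FPKM, and Slc1a4 at 12.4 ± 0.659, 14.1 ± 1.27, 27.5 ± 2.74 and 30.8 ± 0.893 FPKM. Trib3 was at 94.0 ± 19.3, 123 ± 21.9, 106 ± 10.3 and 90.4 ± 38.8 FPKM, and Shmt2 at 45.2 ± 9.13, 69.2 ± 9.99, 77.6 ± 22.5 and 62.2 ± 7.57 FPKM, so their highest means were at 50 and 100 µg. For Cth and Slc7a11 the 50 µg mean lay between untreated and 100 µg, while for Chac1 and Slc1a4 it was near the untreated mean. Col4a2 had another order, at 23.0 ± 7.28, 11.2 ± 3.58, 16.7 ± 3.48 and 12.7 ± 3.35 FPKM, with its lowest mean at 50 µg.

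Monocytes and macrophages enter gliomas from blood. Of 20 of their genes tested, 15 had an estimate below 0, against 59.3% of all genes, 1 was lower at an unadjusted p under 0.05 (2.48% of all genes) and 2 were lower without overlap (6.09% of all genes). The list had a median of -0.33 and -0.43 without replicate 3 at 50 µg. Cd68, a lysosomal protein of phagocytes (chromosome 11, 69664213 to 69666153 in mm10), had 15.1, 14.3 and 8.60 FPKM at 50 µg, against 23.9, 16.0 and 35.8 FPKM in untreated tumors. Every 50 µg library was below every untreated library, though untreated replicate 2 came close, and the difference was -0.91 (SE 0.29, unadjusted p = 0.00951 by limma). C1qb, a chain of complement C1q, had 73.1, 73.7 and 70.3 FPKM at 50 µg, against 130.2, 78.9 and 161 FPKM in untreated tumors, also without overlap (-0.70 (SE 0.33, unadjusted p = 0.0555 by limma)). Untreated replicates 1 and 3 were above untreated replicate 2 in 18 of the 20, so much of the spread lay within the untreated group. Csf1r, the receptor that macrophages need to survive, had 8.10, 7.85 and 10.3 FPKM at 50 µg, against 14.1, 7.96 and 14.3 FPKM in untreated tumors (-0.39, or 0.06 under the plain sum), and Lyz2, lysozyme, had 65.9, 64.7 and 181 FPKM at 50 µg, against 153, 43.1 and 151 FPKM in untreated tumors (-0.12). Arg1, an enzyme of suppressive macrophages, was the largest estimate above 0, with 13.5, 23.7 and 44.9 FPKM at 50 µg, against 9.08, 7.85 and 23.8 FPKM in untreated tumors (0.96 (SE 0.58, unadjusted p = 0.129 by limma), 0.54 without replicate 3 at 50 µg).

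MHC class II genes, which present antigen to helper T cells, varied as much within groups as between them. Cd74, the invariant chain, had 255, 219 and 379.5 FPKM at 50 µg, against 413, 219 and 582 FPKM in untreated tumors (-0.44), and H2-Ab1 had 221, 221 and 254 FPKM at 50 µg, against 370.3, 163 and 521 FPKM in untreated tumors (-0.45). Of 8 tested 6 were below 0, with a median of -0.19, and none had an unadjusted p under 0.05. No unadjusted p under 0.05 was found either in 10 MHC class I genes (median -0.13, or -0.02 under the plain sum), 20 interferon response genes (0.04, or -0.04 under the plain sum), 17 chemokine genes (0.04, or -0.18 without replicate 3 at 50 µg) and 8 microglia genes (-0.11, or -0.25 without it). Lower without overlap were 2 MHC class I genes, 1 interferon response gene and 1 microglia gene (6.09% of all genes). Ccl12, a chemokine for monocytes, was the only chemokine gene without overlap, with 20.0, 15.7 and 16.9 FPKM at 50 µg, against 12.02, 6.86 and 14.4 FPKM in untreated tumors (0.66 (SE 0.53, unadjusted p = 0.238 by limma)). Of 9 T and NK cell genes tested 7 were above 0, with a median of 0.14. The granzymes Gzma, with 4.22, 12.02 and 13.3 FPKM at 50 µg, against 1.98, 5.40 and 9.59 FPKM in untreated tumors (0.76 (SE 0.62, unadjusted p = 0.246 by limma)), and Gzmb, with 5.96, 18.4 and 9.62 FPKM at 50 µg, against 3.91, 5.11 and 10.7 FPKM in untreated tumors (0.68 (SE 0.58, unadjusted p = 0.270 by limma)), overlapped between groups. Cd3e was listed at 0 at 50 µg and at 0.861, 0.628 and 1.00 FPKM in untreated tumors, levels near the limit of assembly. Ncr1 and Ifng were listed at 0 in all 6 libraries.

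Proliferation and hypoxia genes of the tumor had medians near that of all genes. The 24 proliferation genes had a median of -0.06 (0.02 under the plain sum), with none at an unadjusted p under 0.05, and Mki67, a mark of cycling cells, had 32.9, 17.6 and 23.2 FPKM at 50 µg, against 31.8, 20.0 and 23.8 FPKM in untreated tumors (-0.06, or 0.02 after median-of-ratios scaling). The 22 hypoxia genes, a readout of oxygen supply through HIF, had a median of -0.01, and 0.15 without replicate 3 at 50 µg. Of the 22, 1 was lower at an unadjusted p under 0.05 (2.48% of all genes), the glycolytic enzyme Eno1 (-0.57), which has near-identical copies. Car9, a carbonic anhydrase on hypoxic cells, had 8.17, 10.6 and 4.79 FPKM at 50 µg, against 10.2, 6.29 and 5.90 FPKM in untreated tumors (0.05, or -0.01 under the plain sum), and Slc2a1, the glucose carrier, had 347, 200.1 and 62.5 FPKM at 50 µg, against 226, 198 and 163 FPKM in untreated tumors, with the lowest value in replicate 3 at 50 µg. Of 12 glioma stem cell genes tested 9 were below 0. One gene, that is 1 of the 12, was lower at an unadjusted p under 0.05 (2.48% of all genes) and without overlap (6.09% of all genes). That gene was Nes, the intermediate filament nestin (chromosome 3, 87971078 to 87980451), with 25.5, 20.7 and 17.4 FPKM at 50 µg, against 34.2, 36.5 and 32.3 FPKM in untreated tumors, no overlap and a difference of -0.68 (SE 0.29, unadjusted p = 0.0362 by limma). Olig2, a transcription factor of glioma and precursor cells, had 95.4, 139.9 and 102 FPKM at 50 µg, against 238, 132 and 156 FPKM in untreated tumors (-0.61 (SE 0.35, unadjusted p = 0.109 by limma)), and was at 0.39 under the plain sum.

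Lists named for other brain cells show how far replicate 3 at 50 µg reaches. Oligodendrocyte precursor genes had a median of -0.37 over 10 genes, which became 0.03 without it. Under the plain sum of all 6 libraries the median was 0.07. The summed FPKM of the precursor list was 977, 1097 and 486 at 50 µg and 1327, 937 and 1006 in untreated tumors. In healthy brain it was 147 to 251, below every tumor library. Sox10, a regulator of that lineage, had 457, 460.1 and 103 FPKM at 50 µg, against 437, 453 and 461 FPKM in untreated tumors. The other 5 libraries thus agreed closely and replicate 3 at 50 µg alone was low. Of 5 neuron genes tested 4 were below 0, with a median of -0.45 (-0.17 without replicate 3 at 50 µg). The other 1 was higher, at an unadjusted p under 0.05 and without overlap (1.54 and 3.32% of all genes). A further 1 was lower without overlap (6.09% of all genes). Synaptic Snap25 and Slc17a7 were listed at 0 in replicate 3 at 50 µg only, and at 5.34, 2.896 and 2.89 and 3.401, 2.02 and 2.18 FPKM in untreated tumors. Transthyretin (Ttr), a product of the choroid plexus, had 3.89, 2.99 and 0 FPKM at 50 µg, against 49.6, 44.2 and 3.54 FPKM in untreated tumors, where untreated replicates 1 and 2 were far above the other 4 libraries (difference -3.02 (SE 0.93, unadjusted p = 0.00797 by limma)). Of the 10 choroid plexus and ependyma genes 6 were at 0 in all 6 libraries, among them the defining Folr1, Kcnj13, Otx2 and Foxj1, and the summed list was 4.37, 4.09 and 1.18 FPKM at 50 µg and 51.2, 45.7 and 5.03 FPKM in untreated tumors, nearly all of it Ttr where it was high. Hemoglobin genes, which report blood left after perfusion, summed to 184, 18.2 and 39.6 FPKM at 50 µg and 80.1, 65.3 and 232 FPKM in untreated tumors, so the groups overlapped. Both tested, Hba-a1 (-1.26) and Hbb-bs (-0.86), had an estimate below 0. Which cells the genes of these lists came from was not tested, nor was the part of those cells in the other results.

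Beyond the lists, the largest differences were taken among protein-coding genes with an unadjusted p under 0.05, no overlap between groups and no neighbor, overlap or copy to blur them. There were 38 such genes higher and 97 lower at 50 µg. The 10 largest that were higher included 2 amino acid genes already described, Cth and Slc7a11. The largest was G0s2, an inhibitor of the lipase that starts fat breakdown, with 5.22, 18.0 and 12.9 FPKM at 50 µg, against 3.76, 5.22 and 3.18 FPKM in untreated tumors (difference 1.24 (SE 0.41, unadjusted p = 0.0114 by limma)), where replicate 1 at 50 µg was only just above the highest untreated value. Wfdc1, a secreted protein with a whey acidic protein domain, had 4.16, 3.08 and 2.12 FPKM at 50 µg, against 0.674, 1.203 and 1.44 FPKM in untreated tumors (0.96 (SE 0.24, unadjusted p = 0.00207 by limma)). Acot13, a mitochondrial acyl-CoA thioesterase, had 29.8, 33.7 and 37.0 FPKM at 50 µg, against 23.2, 17.5 and 15.2 FPKM in untreated tumors (0.83 (SE 0.20, unadjusted p = 0.00176 by limma)). Acot13 was the most even across the 50 µg libraries.

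The other 5 were highest in replicate 3 at 50 µg, as were Acot13, Cth and Slc7a11. Mrpl52, a subunit of the mitochondrial ribosome, had 108, 119 and 143 FPKM at 50 µg, against 57.4, 72.4 and 52.3 FPKM in untreated tumors (1.01), and Tomm22, a receptor for mitochondrial protein import, had 57.8, 62.1 and 131 FPKM at 50 µg, against 41.6, 41.2 and 46.5 FPKM in untreated tumors (0.84, or 0.47 without replicate 3 at 50 µg). Psmg2, a proteasome assembly chaperone, was at 1.13 and 0.76 without that library, Trit1, a tRNA-modifying enzyme, at 0.82 and 0.59, and Sltm, a nuclear RNA-binding protein, at 0.78 and 0.32.

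The 10 largest that were lower included Cd68. Cox7c, a subunit of cytochrome c oxidase, had 63.3, 133 and 111 FPKM at 50 µg, against 341, 158 and 189.9 FPKM in untreated tumors (difference -1.14 (SE 0.49, unadjusted p = 0.0389 by limma)), with a wide spread in both groups. G6pdx, glucose-6-phosphate dehydrogenase, which makes NADPH, had 17.1, 28.0 and 22.7 FPKM at 50 µg, against 37.1, 52.7 and 41.6 FPKM in untreated tumors (-0.93 (SE 0.35, unadjusted p = 0.0239 by limma), -0.95 without replicate 3 at 50 µg). Dpm3, which anchors the dolichol-phosphate mannose synthase, had 47.9, 53.6 and 33.1 FPKM at 50 µg, against 119.8, 59.9 and 85.1 FPKM in untreated tumors (-0.93 (SE 0.32, unadjusted p = 0.0135 by limma)). It was listed only as single-exon transcripts in all 3 libraries at 50 µg and in untreated replicate 2. In untreated replicates 1 and 3, its 2 highest libraries, it was listed as spliced transcripts. The part this played in its difference was not tested. Serpina3n, a protease inhibitor of reactive astrocytes, had 218, 246 and 99.9 FPKM at 50 µg, against 364, 329.5 and 299.8 FPKM in untreated tumors (-0.91 (SE 0.30, unadjusted p = 0.0123 by limma)), and -0.51 without replicate 3 at 50 µg. Trp53i11 was at -0.98, the kinase Hipk2 at -0.97, calsyntenin Clstn1 at -0.88, the heparan sulfate polymerase Ext2 at -0.81 and the leukotriene receptor Cysltr2 at -0.80. Without replicate 3 at 50 µg these 5 were at -0.77, -0.52, -0.41, -0.33 and -0.62.

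**Figure D4:**
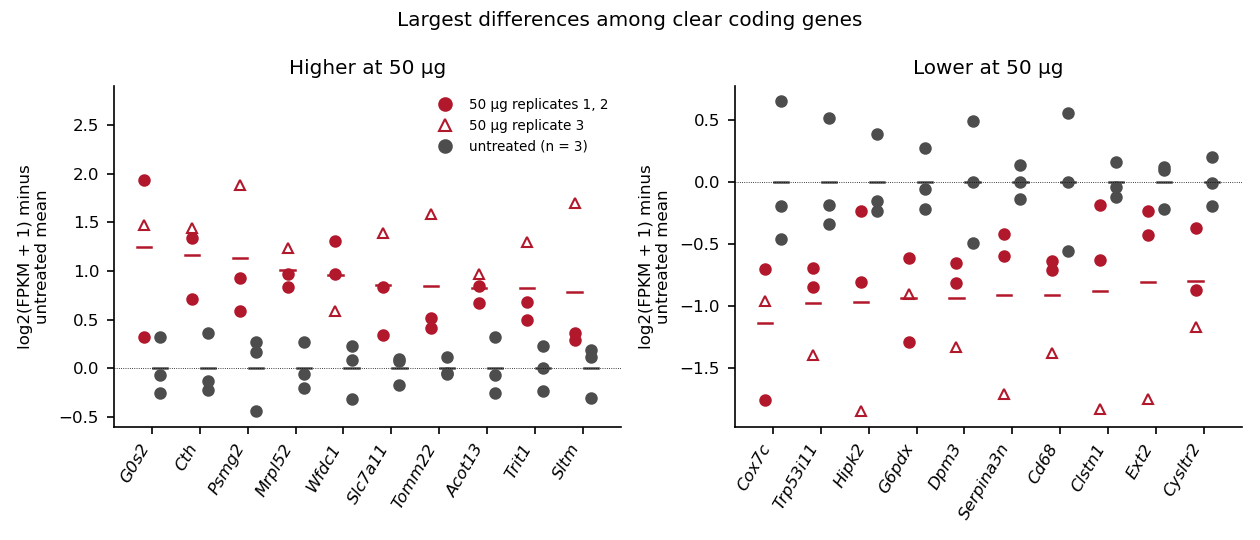
The 10 largest differences in each direction among clear protein-coding genes without overlap between groups, as log2(FPKM + 1) minus the untreated mean. Points are libraries (red, 50 µg; open triangle, 50 µg replicate 3; grey, untreated) and short lines are group means, n = 3 each. In Hipk2, Serpina3n, Clstn1 and Ext2, and in Psmg2, Tomm22 and Sltm on the other side, the open triangle lies apart from the other libraries at 50 µg.

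A few of the genes tested, which averaged at least 1 FPKM over the 12 tumor libraries, were listed in 1 group only. Of these, 13 were above 0 in all 3 libraries at 50 µg and at 0 in all 3 untreated libraries, and the reverse held for 3. Of the 13, only Gzme, Spink4 and Hsd17b1 code for protein. Gzme, a granzyme of activated killer lymphocytes (chromosome 14, 56117626 to 56120625), was at 1.47, 4.37 and 4.55 FPKM at 50 µg. Spink4, a secreted protease inhibitor, was at 0.0300, 11.1 and 10.04 FPKM and Hsd17b1, a steroid dehydrogenase, at 0.287, 1.51 and 1.07 FPKM. Several of the others are pseudogenes with near-identical copies. Of the 3 listed in untreated tumors only, Hspb9, a small heat shock protein of the testis, was at 5.56, 1.62 and 0.0849 FPKM, and Rpl6l, a copy of a ribosomal protein gene, was at 14.7, 14.7 and 12.2 FPKM. A listed 0 can be a failed assembly, so these are lists of what was assembled. The smallest unadjusted p of all 14653 genes was that of Nmnat1, a nuclear NAD synthase, singled out after its values were seen. It had 5.12, 4.16 and 6.03 FPKM at 50 µg, against 0.845, 0.372 and 0.976 FPKM in untreated tumors (difference 1.82 (SE 0.30, unadjusted p = 9.53e-05 by limma)), and its transcripts at times also covered a neighboring gene.

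Across the 30 lists with at least 5 tested genes, 24 had a median below 0, and 22 without replicate 3 at 50 µg. The amino acid stress response list was the highest of the 30 with this library and without it, but under the plain sum the T and NK cell list was higher (0.26 against 0.21). The lowest with it were the pericyte (-0.49) and extracellular matrix (-0.48, or -0.13 under the plain sum) lists, and the lowest without it were MHC class II (-0.44), tip cell (-0.43) and monocyte and macrophage (-0.43) genes. Of the lists not named so far, TGF-beta genes had a median of -0.28 (11 of 12 below 0), astrocyte genes -0.24, oligodendrocyte genes -0.39 (-0.14 without replicate 3 at 50 µg and -0.18 under the plain sum), immediate early genes -0.11 (0.01 without replicate 3 at 50 µg) and cytosolic ribosome genes 0.11. Notch genes had a median of -0.26 (7 of 11 below 0), but 0.0056 without replicate 3 at 50 µg, 0.06 under the plain sum and 0.36 over the 5 clear genes. Of the 11, 1 was lower without overlap (6.09% of all genes), the only 1 with an unadjusted p under 0.05 (2.48% of all genes lower). Another 1 was higher without overlap (3.32% of all genes), Hey1 (0.61), a target of Notch signaling. Notch4, the endothelial Notch receptor, was the lower one, with 2.04, 2.07 and 1.22 FPKM at 50 µg, against 3.23, 3.06 and 2.899 FPKM in untreated tumors (difference -0.56 (SE 0.21, unadjusted p = 0.0233 by limma), -0.25 under the plain sum).

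**Figure D5:**
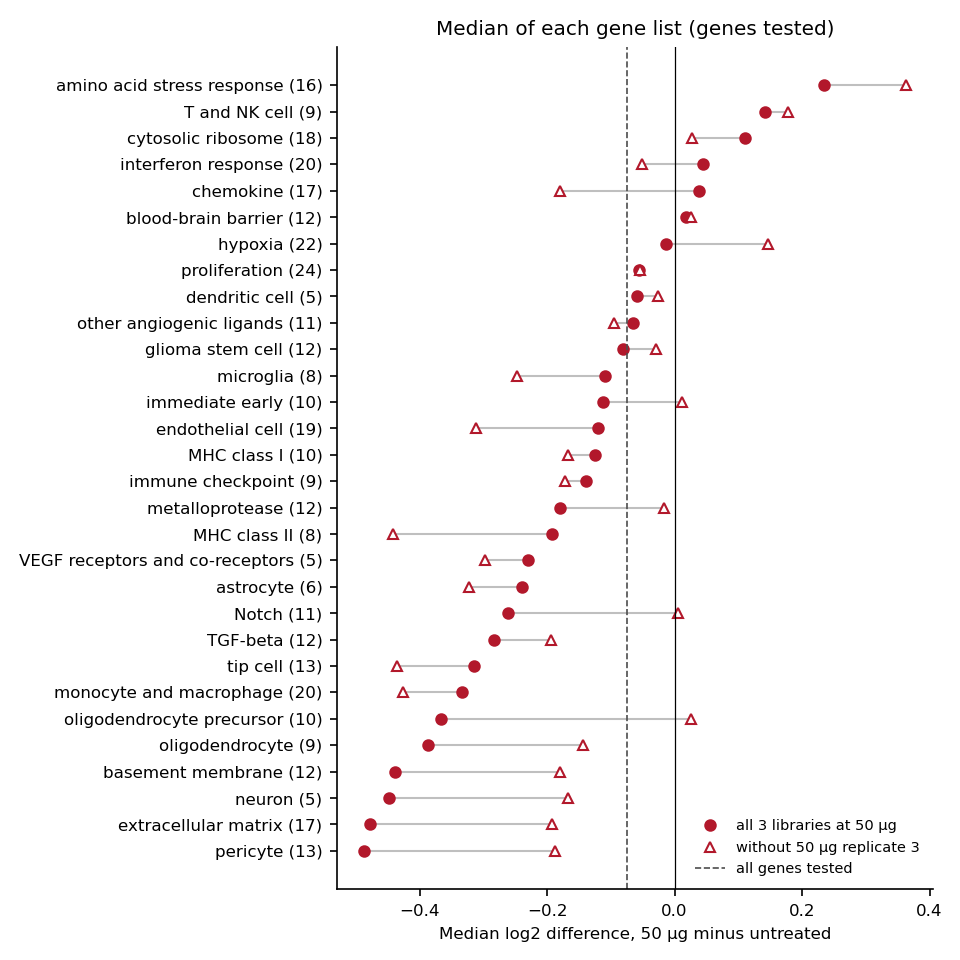
Median log2 difference, 50 µg minus untreated, of each list with at least 5 tested genes (number tested in brackets), with all 3 libraries at 50 µg (filled circles) and without replicate 3 (open triangles). The dashed line is the median of all genes tested (-0.07). The amino acid stress response list is highest under both, and the lists with the longest lines are those in which replicate 3 at 50 µg weighs most.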

How the data were processed

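Bulk RNA sequencing libraries of 3 GL261 tumors treated with anti-VEGF-A at 50 µg per dose were compared with those of 3 untreated tumors, and all 12 tumor libraries entered the fit. Per the labels' protocols, total RNA was made into libraries with a NEBNext Ultra kit. STAR alignment to mm10 and transcript assembly by Cufflinks are named per the submitters' processing notes, with no version given in these sources. The authors deposited 1 table of assembled transcripts per library with exon coordinates and FPKM values, no gene names, and no shared transcripts between libraries. FPKM is relative to the library total, so abundant transcripts shift all others.

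Gene values were computed with Python 3.11.15, pandas 2.3.3 and bedtools 2.31.1 as the sum over transcripts on a gene's exons (GENCODE M21 basic, mm10, 55450 genes) of the deposited FPKM times the covered share of that gene's exonic length, without strand. Single-exon transcripts under 200 bp were set aside. Limma 3.58.1 in R 4.3.3 tested log2(FPKM + 1) of genes that averaged at least 1 FPKM in the 12 libraries (contrast 50 µg minus untreated, Benjamini-Hochberg adjustment, two-sided), and was tested on simulated data. This scale understates differences of low genes. A gene was called uncertain where more than 20% of its value came from transcripts over at least 100 bp of another gene, where exons overlapped another gene, or where at least 50% of its 31-base words recurred in another gene. Named genes were all tested VEGF ligands, receptors and tip cell genes, the 10 largest clear protein-coding differences each way with an unadjusted p under 0.05 and no overlap between groups, up to 3 clear members with the smallest p in every other list, and genes at 0 throughout 1 group only. Further list members are named as examples.

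Depth was estimated from Cufflinks' confidence bounds, so counting intervals are not given. Groups follow titles; the labels call the samples individual, so p-values reflect only how these samples vary, which may be technical. The members and all 39 gene lists were chosen with earlier results of these data known. Alternatives covered the gene value, pseudocount, filter, scaling, limma options, libraries left out, agent field and a replicate block. Healthy brain was used only for levels.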

Additional observations from a re-analysis of the deposited data

How the results depend on the processing

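No gene was called under the removal of single-exon pieces, a mean of at least 5 FPKM, both rescalings, the trend and robust options, the share of genes in pieces as a covariate, or clear genes alone. The count was 2 with a plain FPKM sum (Gm44154 and the endothelin receptor Ednra, at -2.32 against -0.96 in the values reported), 3 over the 6 libraries alone (Rpl6l, Gm6142 and Gm2808), 1 with a pseudocount of 0.1 (Gm12844), 1 with no filter (Gm47972), 3 by the agent field and 1 without the libraries whose agent field disagrees (Ttr, at -3.44). Leaving out 1 library at a time gave 0 to 9 calls, the 9 without 50 µg replicate 1. Genes higher at an unadjusted p under 0.05 (225) numbered 414 with no filter, 146 at 5 FPKM, 350 after median-of-ratios scaling, 147 with the covariate and 109 among clear genes, and 163 to 458 without 1 library. Genes lower (363) numbered 554, 239, 219 and 166 under no filter, 5 FPKM, the covariate and clear genes, and 212 to 854 without 1 library (605 without 50 µg replicate 2, 212 without 50 µg replicate 3). With quantile scaling the split was 322 higher and 252 lower. For 146 named genes under 20 settings, 2706 of 2827 estimates kept their sign, and the 121 others fell in 56 genes. The cause of these shifts was not tested.

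Replicate numbers did not pair the libraries, since same-numbered deviations correlated at 0.014, 0.063 and -0.029, and 50 µg replicate 3 correlated best with untreated replicate 1. The fit with a replicate block called 0 genes, with 221 higher and 414 lower at an unadjusted p under 0.05. Depth limits low genes, where a listed 0 can be a failed assembly.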
